A study of Mus musculus with 9 samples.

Results

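The 10 genes described here belong to the BCL2 family of cell death and survival genes: Bcl2, Bcl2l1, Mcl1, Bax, Bak1, Bid, Bad, Bbc3, Pmaip1 and Bcl2l11. They were chosen by name, 10 of the 52408 genes to which the deposited transcripts could be assigned, and together they have 52 annotated transcripts, of which 44 were above 0 in at least 1 library. All libraries came from MIN6, an insulin-producing line from a mouse insulinoma that serves as a model of pancreatic beta cells. The groups were MIN6 cells given EGCG (epigallocatechin gallate, a catechin of green tea) upon Nr4a1 overexpression, MIN6 cells overexpressing Nr4a1 without EGCG, and untransfected MIN6 cells, with 3 libraries each; that the EGCG cells also overexpressed Nr4a1 comes from the series design. Nr4a1 encodes an orphan nuclear receptor of the NR4A family. The control cells were untransfected, so the overexpression comparison also holds whatever the transfection itself did, and no group given EGCG without overexpression was analysed here. The sources used here do not give the vector, the transfection method or the dose and time of EGCG. Whether the 3 libraries of a group are separate cultures is not stated in the labels, so each p-value reflects spread among libraries that may be technical only.

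The BCL2 family decides whether the outer mitochondrial membrane is breached during the intrinsic pathway of apoptosis. Guardians such as BCL2, BCL-XL (from Bcl2l1) and MCL1 hold the pore-forming effectors BAX and BAK (from Bak1) in check, and BH3-only proteins such as PUMA (from Bbc3), BIM (from Bcl2l11), BID, BAD and NOXA (from Pmaip1) either block the guardians or activate the effectors directly. In beta cells this balance is known to bear on survival under endoplasmic reticulum stress, glucolipotoxicity and cytokines. Much of it is set on the proteins, by cleavage, phosphorylation, degradation and movement to mitochondria, and only RNA was measured here.

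What joins the family is the BH3 motif, the short helix through which its members bind each other. Its coding sequence is shown for a coding transcript of each of 9 members, as 27 bases of the GENCODE M21 transcript. The bases are written 5′ to 3′, with the codons of the conserved leucine and the conserved aspartate in capitals. The pattern searched was a leucine, any 3 residues, a glycine, alanine or serine, an aspartate, and an aspartate, glutamate or glycine, and it matched 1 time in each of these transcripts.
Bcl2-201: CTCcgccgggctgggGATgacttctct
Bcl2l1-201: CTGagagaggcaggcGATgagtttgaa
Mcl1-201: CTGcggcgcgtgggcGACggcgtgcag
Bax-201: CTCcggcgaattggaGATgaactggac
Bak1-202: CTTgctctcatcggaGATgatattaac
Bbc3-201: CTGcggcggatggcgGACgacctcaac
Bcl2l11-205: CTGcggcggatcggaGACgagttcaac
Bid-201: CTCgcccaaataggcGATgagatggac
Bad-202: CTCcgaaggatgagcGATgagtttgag
A second coding transcript of Bcl2l11, Bcl2l11-202, encodes 91 residues against 196 in Bcl2l11-205, and the pattern was not found in it.

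Levels are in TPM as the authors deposited them, which divides out transcript length and gives each library the same sum, and were added up over the transcripts of a gene. Sequencing depth is unknown, because TPM keeps no trace of it. Nr4a1 checked the labels: it stood at 46.3, 60.9 and 54.5 TPM in the EGCG libraries and at 128.3, 122.5 and 165.2 TPM in the overexpression libraries, against 0.63, 0.78 and 0.76 TPM in control. All 10 beta cell markers reached 1 TPM in at least 3 libraries, and their summed level was 21600 to 22800 TPM with EGCG, 27200 to 27600 TPM with overexpression and 19900 to 22000 TPM in control. Most of this sum was Ins2, at means of 17200, 20600 and 16100 TPM in that order, and single markers went other ways: Mafa averaged 33.3, 38.7 and 62.9 TPM, Chga 793, 861 and 1110 TPM, and Slc2a2 3.14, 0.647 and 1.07 TPM. The summed level of 6 markers of other islet cells, nearly all of it Gcg, was 293 to 326 TPM with EGCG, 729 to 810 TPM with overexpression and 319 to 336 TPM in control. In the same order, 5 acinar and ductal markers summed to 4.69 to 5.12, 3.76 to 4.63 and 3.95 to 5.38 TPM. Nearly all of that sum was Cela1, at means of 4.85, 4.26 and 4.68 TPM, with Prss2 at 0 throughout. The summed levels of 6 fibroblast, 6 macrophage and leukocyte, and 4 endothelial markers were at most 0.4, 0.68 and 0.07 TPM with EGCG, 0.22, 0.62 and 0.06 TPM with overexpression, and 0.89, 1.17 and 0.49 TPM in control, and none of these genes reached 1 TPM in 3 libraries. The summed level of 1753 genes named as chemoreceptors, pseudogenes included, was 9.29 to 13.8 TPM with EGCG, 4.78 to 5.42 TPM with overexpression and 61.3 to 121.1 TPM in control, so the control libraries stood apart. Nuclear protein-coding genes held 20.6% of TPM with EGCG, 22.8% with overexpression and 21.5% in control. Small structured RNA genes held more, at 56.5%, 56.0% and 53.8% in the same order, and the control libraries lay below all others. The part of these measures in the results was not tested. In bulk RNA, fewer cells of a type and less RNA per cell cannot be told apart.

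Among the 10 genes, Bax and Bad were the most abundant in every group and Pmaip1 was all but undetected. Bax, the cytosolic effector that forms pores once activated, averaged 27.9 TPM with EGCG, 33.4 TPM with overexpression and 30.3 TPM in control. Bad, a BH3-only sensitizer held inactive by phosphorylation, averaged 21.3, 19.3 and 19.8 TPM in the same 3 groups. The guardians Bcl2l1 and Mcl1 came next, at means between 9.18 and 13.5 TPM, and Bcl2, the founding member, was low at 2.81, 2.73 and 2.72 TPM. The order of levels was Bax, Bad, Bcl2l1, Mcl1, Bcl2l11, Bbc3, Bak1, Bcl2, Bid and Pmaip1 with EGCG and in control. In the control libraries the ranges of Bak1 and Bcl2 overlapped, and with EGCG those of Bbc3 and Bak1 and those of Bak1 and Bcl2 did. With overexpression Mcl1 stood above Bcl2l1 by less than the spread between libraries, and Bbc3 dropped behind Bak1 and Bcl2 to rank 8. Pmaip1, a BH3-only partner of MCL1, was listed at 0, 0 and 0.01 TPM with EGCG, at 0 in all 3 overexpression libraries and at 0.08, 0.05 and 0.01 TPM in control, and was too low to test.

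**Figure D1:**
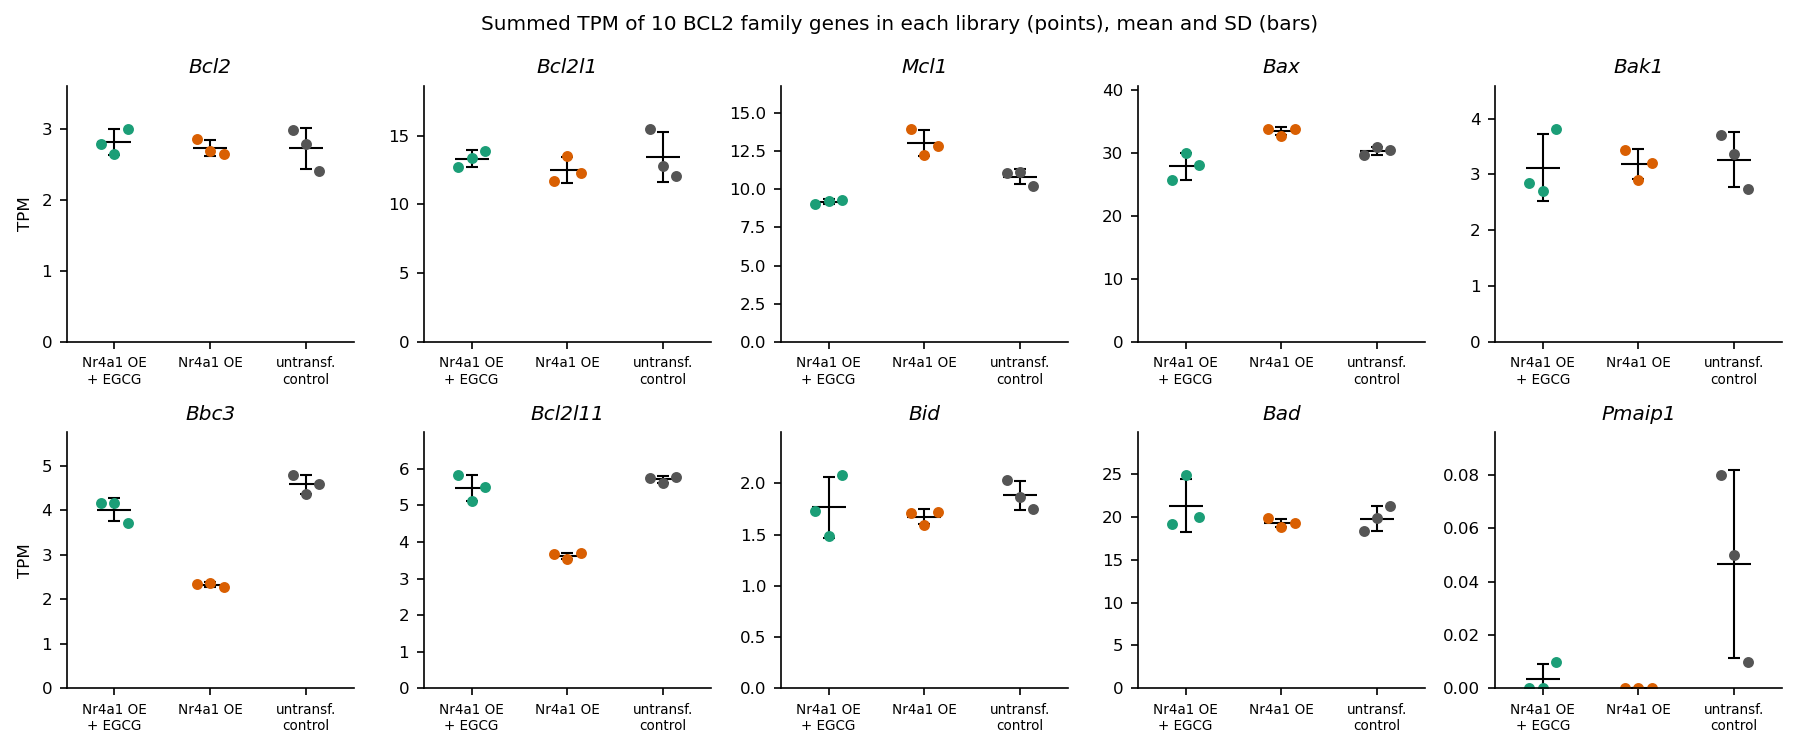
TPM of each of the 10 genes (vertical axes, each from 0) in the 9 libraries; points are libraries, bars are the mean and SD over 3, and groups run from Nr4a1 overexpression with EGCG to overexpression alone and untransfected control. The overexpression points of Bbc3 and Bcl2l11 lie under those of both other groups, and those of Mcl1 and Bax lie above them.

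Under Nr4a1 overexpression 2 BH3-only genes, Bbc3 and Bcl2l11, were lower than in control and the guardian Mcl1 was higher, while Bcl2 and Bcl2l1 did not pass the test. Of the 9 genes that reached 1 TPM in 3 libraries, 1 was called higher and 2 lower at an adjusted p under 0.05 (limma on log2(TPM + 1), Benjamini-Hochberg adjustment over 11950 genes), and 6 did not pass. Over all tested genes 59.5% were called, 38.2% higher and 21.3% lower. The median log2 fold change of the 9 was -0.03, beside 0.10 for all tested genes. On this scale, a fold change of a gene at a few TPM is understated.

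Bbc3, which encodes PUMA, a BH3-only protein induced by p53 and by FOXO3, had 2.34, 2.37 and 2.27 TPM in the overexpression libraries, against 4.79, 4.36 and 4.60 TPM in control. The 2 groups did not overlap, as was so for 65.0% of all tested genes, and the level with overexpression was 50.8% of that in control. The log2 fold change was -0.75 ± 0.06 (SE, n = 3 per group, limma adjusted p = 1.13e-05), and only 4.74% of tested genes had a change at or under it. Bcl2l11, which encodes BIM, a BH3-only protein that can activate BAX and BAK directly, had 3.66, 3.53 and 3.69 TPM with overexpression, against 5.76, 5.61 and 5.77 TPM in control. All 3 overexpression libraries lay below all 3 control libraries, at 63.5% of the control level, and the log2 fold change was -0.54 ± 0.06 (SE, limma adjusted p = 4.76e-05). Both calls held in every alternative that gave a value, 19 for Bbc3 and 20 for Bcl2l11.

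Mcl1, a guardian with a short-lived protein, had 13.97, 12.27 and 12.82 TPM with overexpression, against 11.04, 11.13 and 10.24 TPM in control. Each overexpression library was above each control library, and the level was 121% of control. The log2 fold change was 0.25 ± 0.06 (SE, limma adjusted p = 0.0055). With quantile normalization the change was 0.11 and the call was lost (adjusted p = 0.0718). Bax had 33.83, 32.72 and 33.73 TPM with overexpression, against 29.68, 30.95 and 30.37 TPM in control, with no overlap. Its log2 fold change of 0.14 did not pass the test (limma adjusted p = 0.0737), passed in 3 of 20 alternatives (2 groups in the fit, and without EGCG replicate 1 or 2, adjusted p = 0.0412, 0.0436 and 0.0463), and was -0.03 with quantile normalization.

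Of the other 5 genes that did not pass, Bcl2 had the narrowest interval on the log2(TPM + 1) scale. That scale also narrows the interval of a gene at a few TPM. The mean of Bcl2 was 2.73 ± 0.11 TPM with overexpression and 2.72 ± 0.29 TPM in control (SD, n = 3 each). The 95% interval of its log2 fold change ran from -0.16 to 0.17. Bcl2l1, the more abundant guardian, averaged 12.5 ± 0.93 TPM with overexpression and 13.5 ± 1.82 TPM in control, with an interval of -0.30 to 0.11. Bid, the BH3-only protein that caspase-8 cleaves, had 1.71, 1.59 and 1.72 TPM with overexpression against 2.03, 1.87 and 1.75 TPM in control, a gap with no overlap that did not pass the test (limma adjusted p = 0.301). Bak1, the effector that sits in the mitochondrial membrane, averaged 3.18 ± 0.27 TPM with overexpression and 3.27 ± 0.49 TPM in control, and Bad averaged 19.3 ± 0.48 TPM against 19.8 ± 1.48 TPM. For Bid, Bak1 and Bad, another gene lies over them on the opposite strand (Bcl2l13, Ggnbp1 and Gpr137), and since the strand setting of the counting is not known from the sources used here, reads of such pairs may not be told apart.

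With EGCG upon overexpression, Bbc3 and Bcl2l11 were higher than under overexpression alone, and Mcl1 and Bax were lower. Nr4a1 itself stood at less TPM in the EGCG libraries, as given above, and its part in these differences was not tested. These values and those of the overexpression comparison share the 3 overexpression libraries, so a chance low or high value there moves both, and they are given side by side without a test of reversal. Of the 9 tested genes, 2 were called higher, 2 lower and 5 did not pass. Over all tested genes 53.0% were called, 18.8% higher and 34.1% lower, and the medians of log2 fold change were 0.04 for the 9 genes and -0.09 for all.

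Bbc3 had 4.16, 4.17 and 3.72 TPM with EGCG, against 2.34, 2.37 and 2.27 TPM with overexpression alone. The groups did not overlap, as for 64.6% of all tested genes, and the EGCG level was 173% of that of overexpression alone. The log2 fold change was 0.59 ± 0.06 (SE, limma adjusted p = 5.8e-05). Bcl2l11 had 5.83, 5.11 and 5.51 TPM with EGCG, against 3.66, 3.53 and 3.69 TPM with overexpression alone. Every EGCG library was above every overexpression library, at 151% of its level, and the log2 fold change was 0.49 ± 0.06 (SE, limma adjusted p = 0.000118). Both calls again held in every alternative that gave a value.

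Mcl1 had 9.02, 9.20 and 9.32 TPM with EGCG, the tightest of its groups, against 13.97, 12.27 and 12.82 TPM with overexpression alone. Its level fell to 70.5% of that of overexpression alone, with a log2 fold change of -0.46 ± 0.06 (SE, limma adjusted p = 0.000214), and this call held in all 20 alternatives. Bax had 25.65, 29.95 and 27.99 TPM with EGCG, against 33.83, 32.72 and 33.73 TPM with overexpression alone. The groups did not overlap and the level was 83.4% of that of overexpression alone. The log2 fold change of -0.26 ± 0.06 passed the test (SE, limma adjusted p = 0.0056), but it was -0.07 and -0.11, and no longer called, with quantile normalization and with rescaling over nuclear protein-coding genes (adjusted p = 0.328 and 0.113).

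Those scalings also moved the whole distribution. Rescaling over nuclear protein-coding genes shifted the median log2 fold change of all tested genes in this comparison by 0.13, and the share of calls that were higher was 57.0% with it (3455 higher and 2608 lower), against 35.5% on the TPM scale (2250 higher and 4080 lower). With median-ratio scaling this share was 49.8%, and with quantile normalization 47.6%. For overexpression against control, the share was 64.2% on the TPM scale (4561 higher and 2545 lower) but 51.2% with quantile normalization, and median-ratio scaling gave 3541 higher and 3547 lower. For EGCG upon overexpression against control it was 60.9% on the TPM scale, 51.0% and 50.2% with those 2 scalings and 77.8% with the rescaling. The directions of Bbc3, Bcl2l11 and Mcl1 were the same under each of the 3 scalings in the 2 comparisons with overexpression, with Mcl1 under quantile normalization as given above.

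Bad had 19.13, 24.89 and 19.95 TPM with EGCG, where replicate 2 stood above the others, against 19.83, 18.87 and 19.28 TPM with overexpression alone. Its log2 fold change of 0.13 did not pass (limma adjusted p = 0.284), though it was 0.29 and 0.27 and passed with quantile normalization and with the rescaling (adjusted p = 0.0355 and 0.0352). The other 4 genes did not pass, with 95% intervals of -0.14 to 0.19 for Bcl2, -0.12 to 0.29 for Bcl2l1, -0.29 to 0.24 for Bak1 and -0.15 to 0.24 for Bid.

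Against untransfected control, the cells given EGCG upon overexpression differed in 1 of the 9 tested genes, Mcl1, which was lower. Over all tested genes 18.2% were called, 11.1% higher and 7.1% lower, and the medians were -0.05 for the 9 genes and 0.02 for all. This comparison shares its libraries with both others. Mcl1 stood at 85.0% of control with no overlap, which was so for 34.8% of all tested genes, and its log2 fold change was -0.21 ± 0.06 (SE, limma adjusted p = 0.0371). The call was lost in 9 of 20 alternatives, with adjusted p between 0.0128 and 0.114 over all of them; leaving out control replicate 1 or 2, overexpression replicate 3, or EGCG replicate 1, 2 or 3 ended it, with adjusted p of 0.104, 0.11, 0.0603, 0.114, 0.0843 and 0.0641 in that order. Bbc3 was at 87.6% of control, each EGCG library below each control library, and did not pass (log2 fold change -0.16, limma adjusted p = 0.1). It did pass, at -0.25, when protein-coding transcripts alone were summed (adjusted p = 0.037). Bcl2l11 was at 96.0% of control, with a 95% interval of the log2 fold change of -0.18 to 0.07.

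**Figure D2:**
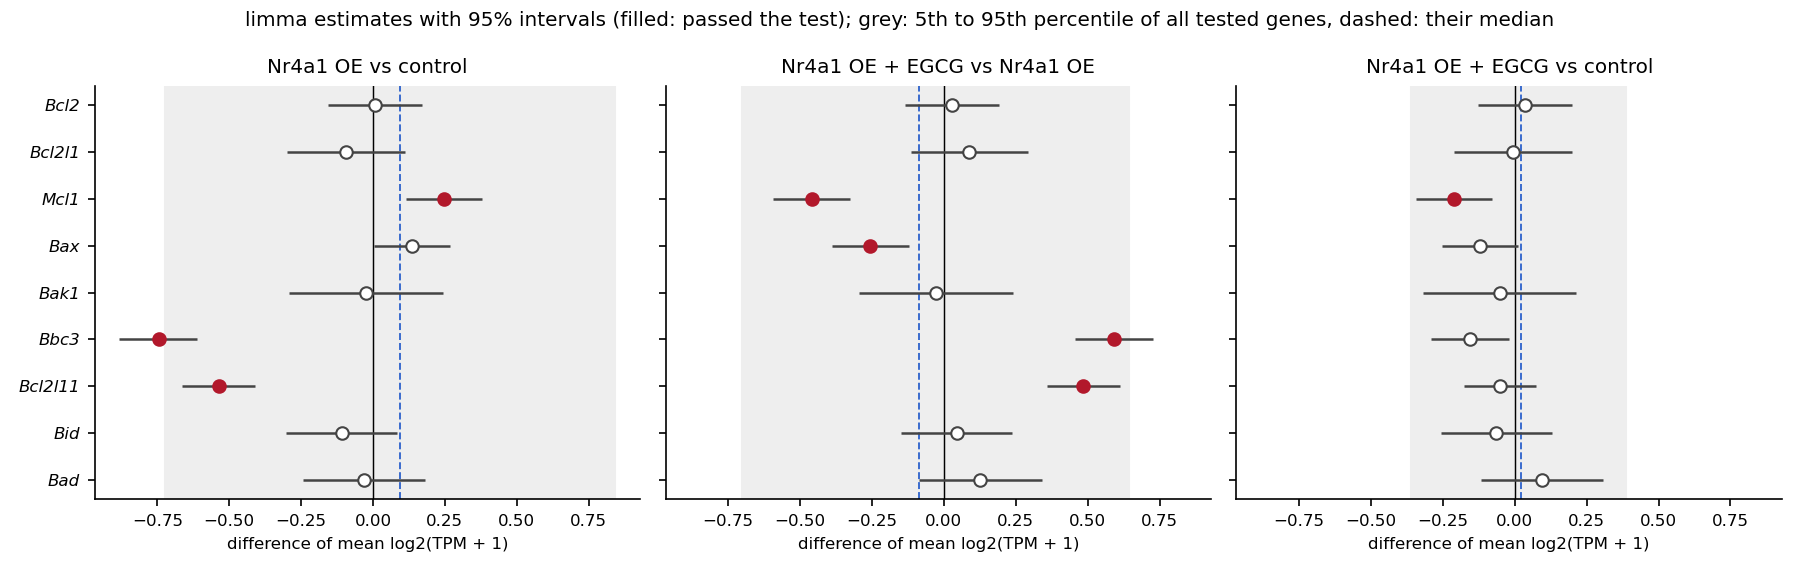
Log2 fold change on the log2(TPM + 1) scale (horizontal axis) of the 9 tested genes in each comparison, with 95% intervals from limma; filled points passed the test, the dashed line is the median of all tested genes and the grey band covers most of them, from the 5th to the 95th percentile. Bbc3 and Bcl2l11 lie at -0.75 and -0.54 in the overexpression panel and at 0.59 and 0.49 in the panel of EGCG against overexpression alone.

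The single transcripts showed which isoforms carried these values. Of the 52 transcripts, 21 reached 1 TPM in 3 libraries. For overexpression against control 3 were called higher and 3 lower, beside 46.3% of all 23437 tested transcripts called in either direction. For EGCG against overexpression alone 3 were called higher and 2 lower, beside 33.1% of all, and for EGCG upon overexpression against control limma called 0 of the 21 at an adjusted p under 0.05, beside 11.0% of all; 2 of the 21, Mcl1-201 and Bak1-202, had an unadjusted p under 0.05 there (0.0133 and 0.0202).

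Most Bbc3 TPM was assigned to Bbc3-203, a transcript with a retained intron, which held 62.2% of the gene's TPM with EGCG, 62.3% with overexpression alone and 56.7% in control. It had 2.40, 2.72 and 2.37 TPM with EGCG and 1.50, 1.54 and 1.31 TPM with overexpression alone, against 2.66, 2.46 and 2.68 TPM in control. Bbc3-201, a coding transcript, had 1.67, 1.27 and 1.26 TPM with EGCG and 0.84, 0.72 and 0.96 TPM with overexpression alone, against 1.55, 1.38 and 1.50 TPM in control. Both transcripts were lowest in the overexpression libraries, with no overlap with either other group. Overexpression against control gave log2 fold changes of -0.56 for Bbc3-203 and -0.43 for Bbc3-201 (limma adjusted p = 0.000657 and 0.00941), and EGCG against overexpression alone gave 0.51 and 0.38 (adjusted p = 0.00144 and 0.0215). The last of these calls was lost in 4 alternatives, among them without overexpression replicate 1 or 2 or EGCG replicate 1 (adjusted p = 0.0575, 0.0723 and 0.0751). Summed over protein-coding transcripts alone, Bbc3 had log2 fold changes against control of -0.67 with overexpression and -0.25 with EGCG upon overexpression. Bbc3-201 by itself gave -0.43 and -0.05, so that sum holds other coding RNA, from transcripts under the filter that are not shown singly.

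Bcl2l11-205, which encodes the long 196-residue form with the BH3 stretch shown above, had 2.55, 2.49 and 2.66 TPM with EGCG and 1.92, 1.93 and 1.88 TPM with overexpression alone, against 2.77, 2.36 and 2.99 TPM in control. The overexpression libraries lay below all others. The log2 fold change was -0.35 between overexpression and control and 0.29 between EGCG and overexpression alone (limma adjusted p = 0.00736 and 0.0204), and the second call was lost in 6 alternatives, among them without any of the 3 overexpression libraries or EGCG replicate 1 or 3 (adjusted p between 0.0545 and 0.065 for these). Bcl2l11-206, a noncoding transcript of the gene, was under the filter and was not tested; it had 0.52, 0.69 and 0.34 TPM with EGCG and 0.30, 0.21 and 0.28 TPM with overexpression alone, against 1.32, 1.22 and 0.84 TPM in control. Its control values were above all others, so unlike Bcl2l11-205 its EGCG and control values did not overlap. Bcl2l11-202, the form without the pattern, was also under the filter, at means of 0.84, 0.52 and 0.69 TPM with EGCG, with overexpression alone and in control.

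Mcl1 was carried by Mcl1-201, the full-length coding form of 331 residues, at means of 9.18 TPM with EGCG, 13.0 TPM with overexpression alone and 10.5 TPM in control, and it was called higher with overexpression (log2 fold change 0.28, limma adjusted p = 0.00452) and lower with EGCG against overexpression alone (-0.46, adjusted p = 0.000622). For Bax, the main form Bax-201 averaged 24.5, 28.6 and 27.2 TPM in the same order of groups and was called for EGCG against overexpression alone (-0.22, adjusted p = 0.046, lost in 14 of 19 alternatives, with all but control replicate 3 and EGCG replicate 3 among the libraries whose omission ended it). The shorter Bax-203, whose annotated coding part is incomplete, averaged 1.92, 3.03 and 1.50 TPM and was called for overexpression against control (0.71, adjusted p = 0.0183, lost without control replicate 1 or 2 or overexpression replicate 2 or 3, with adjusted p up to 0.0607). Bak1-202, a coding transcript of Bak1, averaged 1.11, 1.15 and 0.60 TPM and was called for overexpression against control (0.44, adjusted p = 0.0347). This call was lost in 12 of 18 alternatives, including those without control replicate 1 or 2, any overexpression library or EGCG replicate 1 (adjusted p up to 0.0996). The sum over Bak1 transcripts did not differ beyond its spread. Summed over protein-coding transcripts alone, Bak1 had a log2 fold change of 0.055 between overexpression and control (limma adjusted p = 0.666). Bak1-202 was thus not all of its coding RNA.

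Bcl2l1 was spread over several coding transcripts and none passed the test, though 3 of them did so for overexpression against control under some alternatives. Bcl2l1-201 had 7.23, 6.99 and 5.34 TPM with EGCG and 8.08, 6.82 and 9.10 TPM with overexpression alone, against 6.29, 5.68 and 6.43 TPM in control. The overexpression values were above all control values (log2 fold change 0.33, limma adjusted p = 0.06), and the change passed in 4 of 19 alternatives (a filter at 5 TPM, 2 groups in the fit, and without overexpression replicate 2 or EGCG replicate 3, adjusted p between 0.0306 and 0.0495). Bcl2l1-204, which has an incomplete coding part, averaged 0.96, 0.48 and 1.92 TPM in the same order, and had a log2 fold change of -0.95 between overexpression and control that did not pass (limma adjusted p = 0.0543). It passed in 5 of 18 alternatives (a pseudocount of 0.1, where it was -1.90, median-ratio scaling, and without control replicate 3, overexpression replicate 2 or EGCG replicate 3, adjusted p between 0.033 and 0.0489). Bcl2l1-202 averaged 2.16, 1.17 and 2.36 TPM, and its log2 fold change of -0.67 between overexpression and control (limma adjusted p = 0.111) was -0.95 and passed without overexpression replicate 2 (adjusted p = 0.0399). Values of single transcripts depend on how the authors' estimation shared out reads between isoforms.

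**Figure D3:**
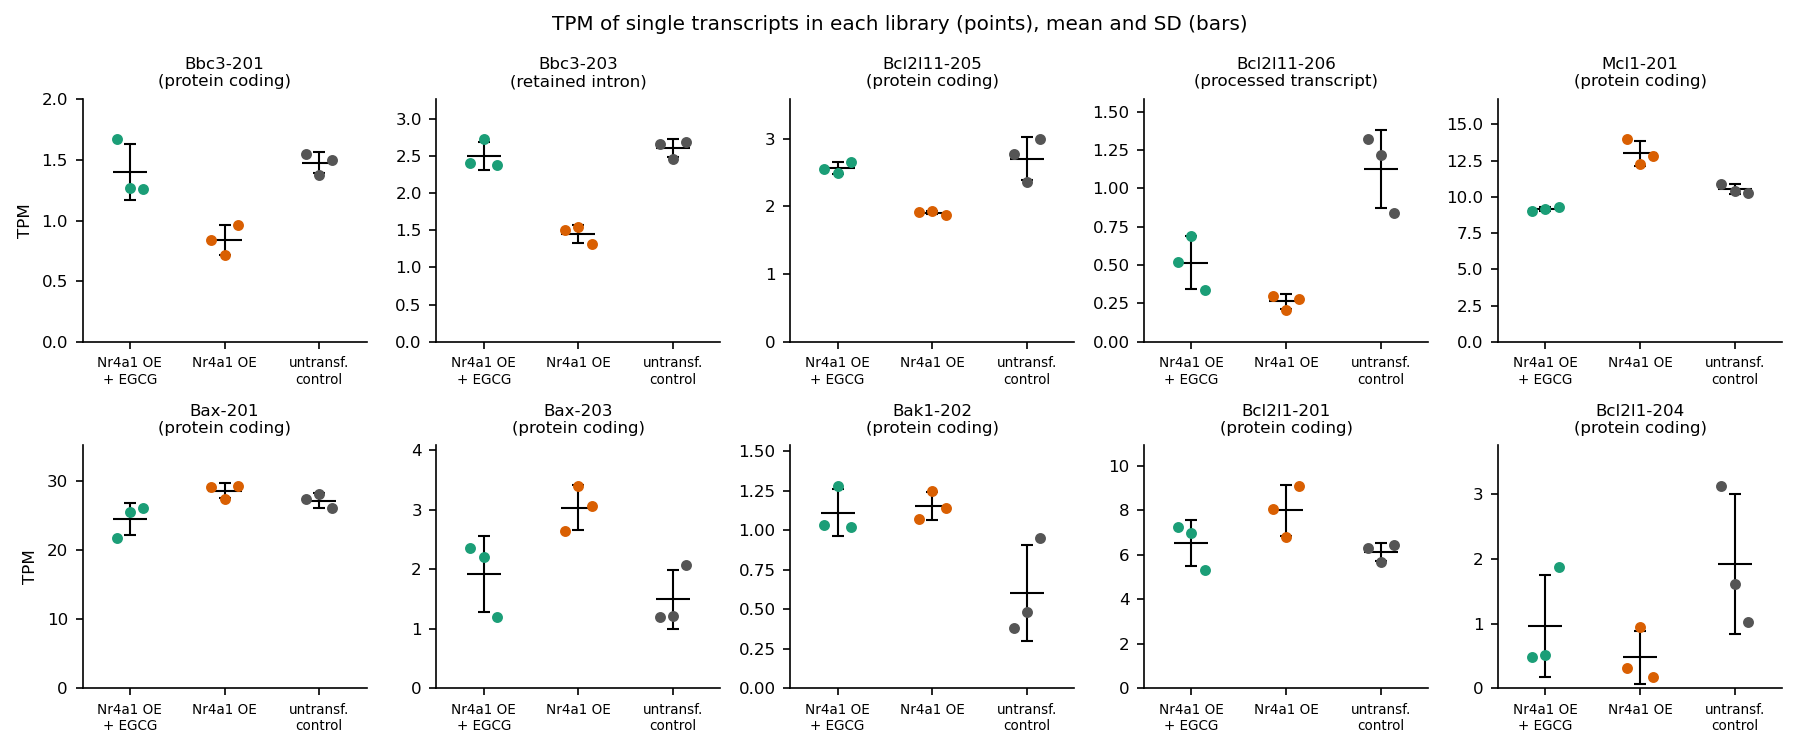
TPM (vertical axes, each from 0) of 10 transcripts of the family in the 9 libraries; points are libraries and bars are the mean and SD over 3. Bbc3-201, Bbc3-203 and Bcl2l11-205 are lowest with overexpression alone, Mcl1-201 is highest there, and Bcl2l11-206 is highest in control.

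A factor that multiplies all TPM of a library cancels in a ratio of 2 of its genes, so ratios were formed for each library and are given as values without a test. Quantile normalization is not such a factor, and the ratios were not formed under it. The summed level of Bbc3 and Bcl2l11 over that of the 3 guardians was 0.408, 0.368 and 0.352 with EGCG and 0.210, 0.207 and 0.215 with overexpression alone, against 0.357, 0.374 and 0.419 in control. The overexpression libraries lay below all others, and the EGCG and control libraries overlapped. Bbc3 and Bcl2l11 had been called lower with overexpression in these same libraries and Mcl1 higher, so the low ratio there restates those calls. The sum of all listed BH3-only genes (Bbc3, Bcl2l11, Bid, Bad and Pmaip1) was 32.6 ± 2.66 TPM with EGCG, 27.0 ± 0.59 TPM with overexpression alone and 32.0 ± 1.25 TPM in control (SD). Set against Mcl1 alone, Bbc3 was at 0.438 ± 0.034 with EGCG, 0.179 ± 0.013 with overexpression alone and 0.425 ± 0.030 in control, and Bcl2l11 was at 0.598 ± 0.046, 0.279 ± 0.015 and 0.530 ± 0.031 (SD, n = 3 each).

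The ratio of effectors to guardians moved less. Bax and Bak1 summed over the 3 guardians was 1.22 ± 0.07 with EGCG, 1.30 ± 0.04 with overexpression alone and 1.25 ± 0.11 in control, with overlap between all groups. The ratio of Bax to Bcl2, often quoted as a measure of readiness to die, was 9.19, 11.3 and 9.33 with EGCG and 11.8, 12.2 and 12.7 with overexpression alone, against 9.96, 11.1 and 12.6 in control. EGCG libraries lay below overexpression libraries, and control libraries overlapped both. Bax over Bcl2l1 was 2.09 ± 0.12, 2.69 ± 0.24 and 2.28 ± 0.32, and Bak1 over Mcl1 was 0.340 ± 0.062, 0.244 ± 0.007 and 0.302 ± 0.034, in the same order of groups.

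**Figure D4:**
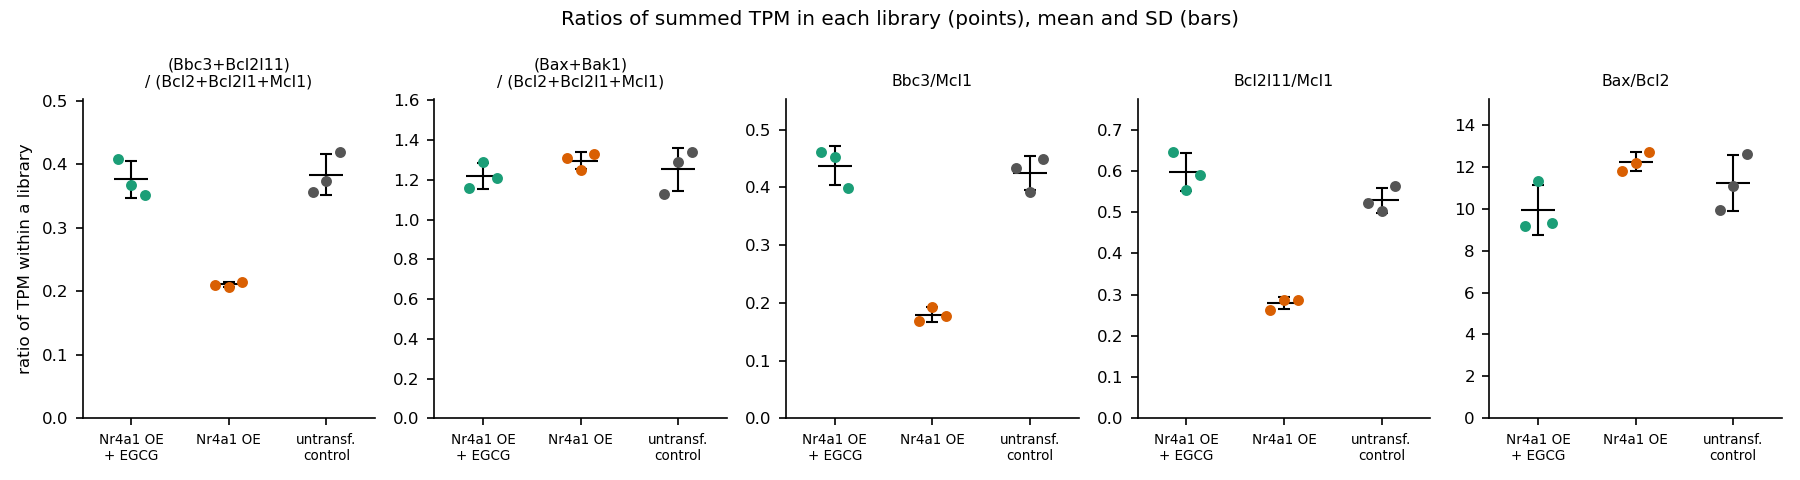
Ratios of TPM within each library (vertical axes, each from 0), with points for libraries and bars for the mean and SD over 3. The ratio of Bbc3 and Bcl2l11 to the 3 guardians is between 0.207 and 0.215 with overexpression alone and between 0.352 and 0.419 in the other 2 groups. Bbc3 and Bcl2l11 had already been called lower with overexpression in these libraries.

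The promoters of Bbc3 and Bcl2l11 are shown because both genes were called lower with overexpression and higher with EGCG against overexpression alone. Motifs were searched on both strands of RefSeq promoter windows (GRCm38.p6, from upstream of a start to shortly after it), of which 15 belong to 9 of the 10 genes. The forkhead core TGTTTAC was found in 1 window each of Bcl2l11 and Bbc3 and in 3.65% of all 32851 windows. The Bcl2l11 window is that of its main start (chr2:128125788-128126087, plus strand), with the core on the opposite strand 227 bases before the start, and the Bbc3 window (chr7:16310011-16310310, plus strand) has it 167 bases before a start that is not within 50 bases of any Bbc3 transcript start of GENCODE M21. The core is in capitals.
Bcl2l11 promoter: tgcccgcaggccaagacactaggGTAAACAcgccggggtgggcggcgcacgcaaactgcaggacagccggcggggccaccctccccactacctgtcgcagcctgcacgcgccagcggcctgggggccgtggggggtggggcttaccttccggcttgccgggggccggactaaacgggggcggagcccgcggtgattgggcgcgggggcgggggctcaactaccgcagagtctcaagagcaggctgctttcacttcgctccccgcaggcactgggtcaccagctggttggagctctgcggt
Bbc3 promoter: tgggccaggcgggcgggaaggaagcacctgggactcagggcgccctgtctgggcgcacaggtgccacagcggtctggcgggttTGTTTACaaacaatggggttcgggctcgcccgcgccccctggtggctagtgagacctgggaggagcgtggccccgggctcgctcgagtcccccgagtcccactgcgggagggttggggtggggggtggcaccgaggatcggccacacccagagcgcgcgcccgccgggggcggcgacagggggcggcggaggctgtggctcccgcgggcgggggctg
The window at the start of Bbc3-201 did not hold the core. The NBRE, the element that NR4A receptors bind as monomers (AAAGGTCA), was in 1.51% of all windows and in none of the 15. The AP-1 element (TGANTCA, 7.81% of all windows) and the cyclic AMP response element (TGACGTCA, 1.79%) were in none of the 15 either. The E-box CACGTG (7.15% of all windows) was in windows of Bax and Bbc3, and so was the hypoxia response core ACGTG (19.6%), which the E-box contains. A match is a description of these letters and not a measured binding site, and no factor's binding was measured here.

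Of 14 other members of the BCL2 family that were listed, 6 reached 1 TPM in 3 libraries. With overexpression 3 were called higher and 1 lower, beside 59.5% of all tested genes called (median log2 fold change 0.33, beside 0.10 for all), and with EGCG against overexpression alone 1 was higher and 2 lower, beside 53.0% of all (median -0.08, beside -0.09 for all; the list's median was 0.01 with median-ratio scaling and 0.05 with the rescaling). These shares of called genes were near those over all genes. Bcl2l2, which encodes the guardian BCL-W, averaged 11.3 ± 0.51 TPM with EGCG and 14.6 ± 0.79 TPM with overexpression alone, against 10.1 ± 0.42 TPM in control, and was called higher with overexpression (0.49, limma adjusted p = 0.000103) and lower with EGCG (-0.34, adjusted p = 0.00108). Bcl2l14 averaged 0.66 ± 0.10, 1.74 ± 0.14 and 0.47 ± 0.12 TPM in the same order, with calls of 0.90 and -0.72 (adjusted p = 3.2e-05 and 0.000157). It reached 1 TPM in the overexpression libraries alone. Bcl2l14 thus passed the filter only through the group where it was high, and its calls are not independent of the filter.

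Bmf, a BH3-only gene, followed another pattern, with 1.99 ± 0.16 TPM with EGCG, 0.89 ± 0.21 TPM with overexpression alone and 1.16 ± 0.23 TPM in control. It was called higher with EGCG both against overexpression alone (0.67, limma adjusted p = 0.000868) and against control (0.48, adjusted p = 0.0204). The call against control was lost without control replicate 2, EGCG replicate 1 or EGCG replicate 2, with adjusted p up to 0.0717. Bok, an effector relative, averaged 6.54 ± 0.51 TPM with overexpression and 4.52 ± 1.18 TPM in control (0.47, adjusted p = 0.0166), and Hrk, a BH3-only gene known from neurons, averaged 0.79 ± 0.07 TPM with overexpression and 1.08 ± 0.05 TPM in control (-0.22, adjusted p = 0.02). Hrk reached 1 TPM in the control libraries alone, so it passed the filter only through the group where it was high. Bok lost its call in 5 of 20 alternatives (median-ratio scaling, quantile normalization, and without control replicate 1 or 2 or overexpression replicate 2, adjusted p up to 0.0625), and Hrk in 3 of 19 (quantile normalization, and without control replicate 2 or overexpression replicate 2, up to 0.0863). Bcl2l13 was not called in any comparison.

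Downstream of the mitochondrion, most tested genes of a list of caspases, their adaptor, released factors and nuclease-linked genes were higher with overexpression. Cycs, the gene for cytochrome c, and Casp9 were not called there (log2 fold changes 0.08 and 0.05, limma adjusted p = 0.41 and 0.626). These 2 were named after their values were seen. Of 14 listed genes 13 were tested; with overexpression 9 were called higher and 1, Casp8, lower (median log2 fold change 0.47, beside 0.10 for all genes, of which 38.2% were called higher and 21.3% lower), and with EGCG against overexpression alone 1, Casp8, was called higher and 10 lower (median -0.37, beside -0.09 for all genes, of which 18.8% were called higher and 34.1% lower). The median kept its sign under each of the 3 scalings, and the number lower with EGCG was 6 to 8 under them. Dffa, the chaperone and inhibitor of the caspase-activated nuclease, averaged 3.81 ± 0.19 TPM with EGCG, 6.47 ± 0.46 TPM with overexpression alone and 2.93 ± 0.09 TPM in control (0.92 for overexpression against control, limma adjusted p = 4.29e-06, and -0.63 for EGCG against overexpression alone, adjusted p = 4.83e-05). Diablo, whose product frees caspases from their inhibitors, averaged 22.7 ± 0.12, 32.1 ± 2.52 and 20.0 ± 1.47 TPM in the same order (0.66 and -0.48, adjusted p = 5.72e-05 and 0.000476).

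Casp8, the initiator of the death receptor arm that cleaves BID, averaged 6.49 ± 0.12 TPM with EGCG, 5.05 ± 0.25 TPM with overexpression alone and 6.80 ± 0.28 TPM in control (-0.37 and 0.31, limma adjusted p = 0.000366 and 0.00124). It was named for overexpression after its values were seen, as the gene that went against its list. Among the receptors and adaptors of that arm, 7 of 8 were tested, with 2 higher and 2 lower under overexpression relative to control, near the 59.5% called over all genes. EGCG relative to overexpression alone gave 1 higher and 1 lower, beside 53.0% called over all genes, or 3 higher and 1 lower with median-ratio scaling. Tnfrsf10b, a TRAIL receptor, averaged 1.16 ± 0.10, 0.52 ± 0.05 and 1.19 ± 0.20 TPM (log2 fold changes -0.52 and 0.51, limma adjusted p = 0.00066 and 0.000966), and Fadd, the adaptor that recruits caspase-8, averaged 1.49 ± 0.07, 2.13 ± 0.08 and 1.52 ± 0.01 TPM (0.31 and -0.33, adjusted p = 0.00153 and 0.00145).

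Of 10 inhibitors of apoptosis 5 were tested, with 3 higher under overexpression and 1 lower with EGCG relative to overexpression alone, beside 59.5% and 53.0% of all genes called; only 1 of the 3 stayed called with median-ratio scaling or quantile normalization, and the call with EGCG was lost with quantile normalization and with the rescaling. Birc6, a giant ubiquitin ligase of this family, averaged 25.4 ± 0.60 TPM with EGCG, 28.6 ± 1.95 TPM with overexpression alone and 19.2 ± 1.23 TPM in control, and was higher than control in both (0.55 and 0.39, limma adjusted p = 9.7e-05 with overexpression and 0.00746 with EGCG). Among 13 tested regulators of BCL2 proteins, 6 were higher and 3 lower under overexpression (2 and 4 with quantile normalization, where the median log2 fold change was -0.16, against 0.04 on the TPM scale), and 2 were higher and 4 lower with EGCG relative to overexpression alone (4 and 3 with quantile normalization). These counts lie near the 59.5% and 53.0% called over all genes. Ywhaz, a 14-3-3 protein of the family that holds phosphorylated BAD in the cytosol, averaged 86.9 ± 3.6, 143 ± 9.2 and 86.2 ± 2.54 TPM (0.73 and -0.71, adjusted p = 1.4e-05 and 2.25e-05). The mitochondrial channel Vdac1 averaged 69.1 ± 3.26, 58.2 ± 3.23 and 72.1 ± 3.69 TPM (-0.31 and 0.25, adjusted p = 0.00256 and 0.00915), while Vdac3 averaged 86.1 ± 2.0, 112 ± 1.99 and 86.5 ± 2.99 TPM (0.37 and -0.38, adjusted p = 0.00016 and 0.000193).

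Of 14 transcription factors known to act on BH3-only genes 11 were tested. For overexpression against control 2 were higher and 5 lower (median log2 fold change -0.14, beside 0.10 for all genes). The share called was near the 59.5% over all genes, of which 38.2% were called higher and 21.3% lower. Under median-ratio or quantile scaling all 11 were called, 2 higher and 9 lower, beside 7088 and 6948 of all 11950 genes. For EGCG against overexpression alone 6 were higher and 2 lower (median 0.32, beside -0.09 for all genes), where 53.0% of all genes were called, 18.8% higher and 34.1% lower. Foxo3, a forkhead factor, averaged 5.56 ± 0.14 TPM with EGCG and 2.87 ± 0.10 TPM with overexpression alone, against 6.52 ± 0.67 TPM in control (SD, n = 3 each), and was called in both comparisons (-0.96 and 0.76, limma adjusted p = 6.28e-06 and 3.14e-05). Trp53, the gene for p53, averaged 11.9 ± 0.16 TPM with EGCG, 16.8 ± 0.11 TPM with overexpression alone and 8.72 ± 0.29 TPM in control. It was called higher with overexpression (0.87, limma adjusted p = 1.28e-06). Atf4, a factor of the integrated stress response, averaged 112 ± 5.94, 175 ± 1.91 and 116 ± 4.39 TPM (0.59 and -0.64, adjusted p = 2.57e-05 and 2.29e-05). Jun averaged 5.55 ± 0.12, 3.54 ± 0.17 and 8.82 ± 0.89 TPM and was lower than control in both groups (-1.11 with overexpression and -0.58 with EGCG, adjusted p = 3.49e-06 and 0.00326). None of this says which factor acted on which gene.

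**Figure D5:**
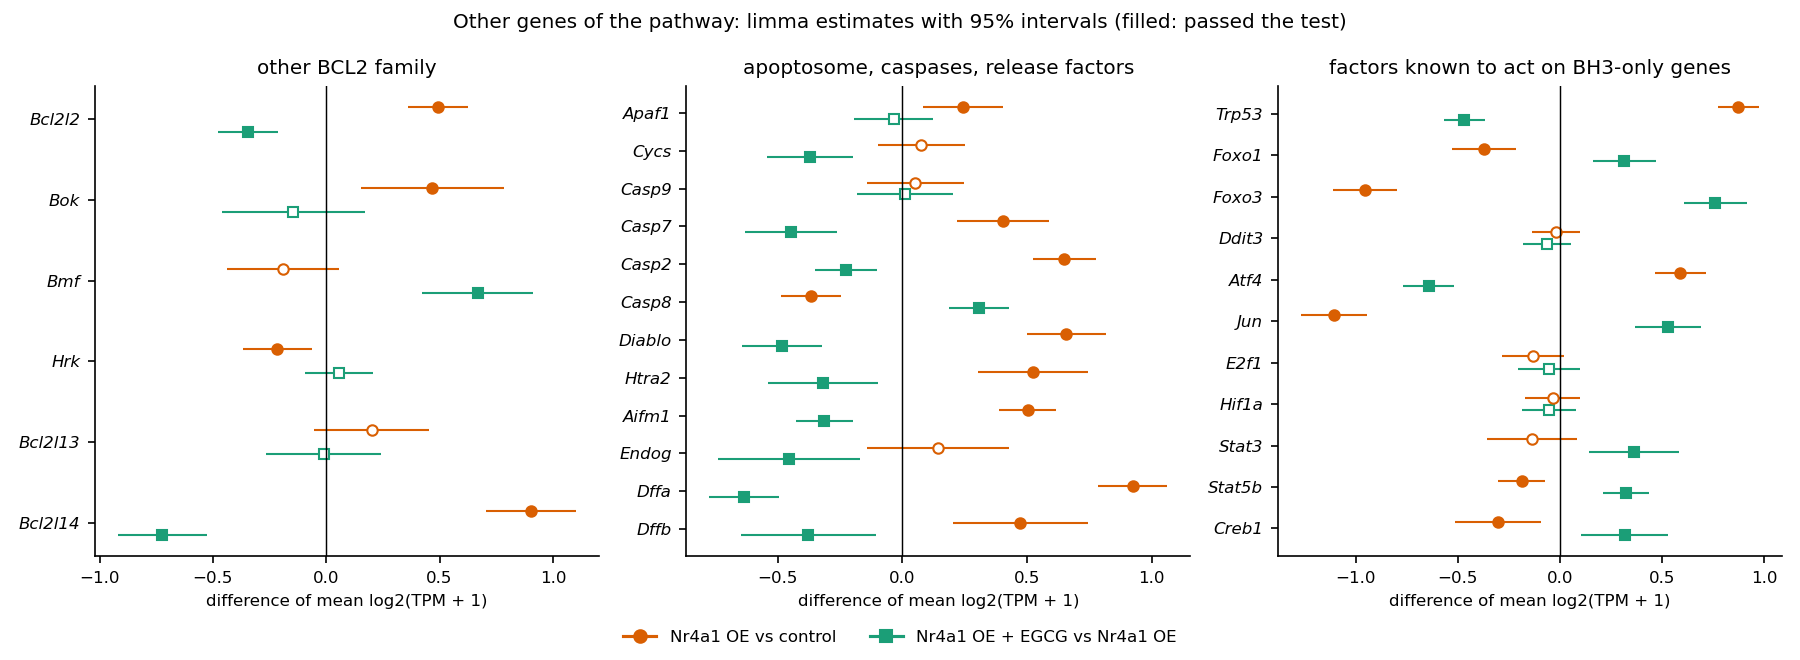
Log2 fold change on the log2(TPM + 1) scale (horizontal axes) of the tested genes, all but 1, of 3 lists (other BCL2 family genes, apoptosome genes, transcription factors), with 95% intervals and filled points for genes that passed the test, overexpression set against control and EGCG set against overexpression alone, which share the overexpression libraries. Dffa and Trp53 lie at 0.92 and 0.87 in the first and at -0.63 and -0.47 in the second, and Foxo3 at -0.96 and 0.76.

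The genes whose levels over the 9 libraries were most like Bbc3 and Bcl2l11 were found by the root mean square difference of centred log2(TPM + 1), among 10759 tested protein-coding genes, as a description. Nearest to Bbc3 were Rgs5 (0.0453), Fgf21 (0.0633) and Igsf8 (0.0654). Rgs5, a regulator of G protein signalling, averaged 3.77 TPM with EGCG, 2.07 TPM with overexpression alone and 4.24 TPM in control. Nearest to Bcl2l11 were Slc30a9 (0.0448), Setd7 (0.0448) and Maml3 (0.0465), and Slc30a9, a zinc transporter, averaged 49.2, 34.7 and 52.2 TPM in the same order. Bcl2l11 ranked 63 among the genes nearest to Bbc3 (0.105), and Bbc3 ranked 226 among those nearest to Bcl2l11.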

How the data were processed

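Total RNA of MIN6 cells was extracted with RNeasy and made into stranded total RNA libraries, per the labels' protocols; all 9 carry the label batch 1. The deposited values are TPM per Ensembl transcript. The submitters' processing notes name RSEM 1.2.31, STAR 2.7.1a, cutadapt 2.8, FastQC 0.11.9, bcl2fastq 2.20 and, as build, GRCm39; the sources used here do not give the annotation release, strand setting or filters. Because TPM has a fixed sum, more of an abundant RNA means less TPM for the rest.

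Identifiers were joined to genes with GENCODE M21, an older build used for names, types and coding sequence; 138346 of 142435 matched (97.13%), so sums cover M21 transcripts only, and the unmatched held 17.993% to 20.572% of TPM. Promoter sequences are from RefSeq. Sample titles gave the groups and replicate numbers.

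TPM was summed per gene and tested with limma 3.58.1 in R 4.3.3 on log2(TPM + 1), a pseudocount of 1, in a single fit of all 9 libraries with a mean-variance trend, two-sided, for genes (11950) or transcripts (23437) that reached 1 TPM in 3 or more libraries, with Benjamini-Hochberg adjustment at 0.05 within a comparison. The fit was tested on simulated data for overexpression against control, with 200 of 11950 genes changed, far fewer than were called here. It recovered 62.8% of changes of 0.5 and 95.2% of changes of 1 on the log2 scale, and 4.48% of its calls were false. Changes of the smaller size can thus be missed. Errors of TPM are SD and those of log2 fold changes limma's SE.

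The members and gene lists were chosen with earlier results of these data known. Named are all 10 members, some of their transcripts at 1 TPM in 3 libraries (0.5 TPM for Bcl2l1 and Bcl2l11), Nr4a1, other BCL2 family genes, from each further list some of up to 4 called genes with the smallest adjusted p in a comparison, and the 3 most similar genes of the 2 members with the greatest range. The tested member transcripts left out of the Results were not called in any comparison. Among them, Bad-206 and Bad-207 each passed in 3 of 18 alternatives for EGCG against overexpression alone. Of the listed genes, 1 is counted in its list but not reported here by name. Alternatives covered the pseudocount, the filter, 3 scalings, the libraries in the fit, the variance trend, a replicate block and each library left out; sums of protein-coding transcripts alone were added after the data were seen. Figures and tables used Python 3.11.15, pandas 2.3.3 and matplotlib 3.10.9.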

Additional observations from a re-analysis of the deposited data

How the results depend on the processing

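Counts of called genes (7106 for overexpression against control, 6330 for EGCG against overexpression alone, 2172 for EGCG upon overexpression against control) and transcripts (10845, 7766 and 2571) depended most on the processing in the last comparison. With no filter on low values they were 12395 genes for overexpression and 4775 for EGCG against control; with a filter at 5 TPM they were 5296 and 4259 transcripts in the first 2 comparisons; with the 2 compared groups alone in the fit, EGCG against control gave 895 genes and 552 transcripts. Leaving out each library gave 6286 to 7263, 5411 to 6787 and 735 to 3239 genes, and 8712 to 11095, 5808 to 8289 and 590 to 4428 transcripts; the lowest gene count came without EGCG replicate 1. Same-numbered libraries had correlations of deviations of -0.021 to 0.214, and differently numbered ones of -0.238 to 0.121. The ranges overlap, so whether the numbers pair libraries cannot be told from them. The replicate block gave 1221 genes and 1042 transcripts for EGCG against control, and 6723 and 5882 genes in the other 2 comparisons. For the lists, counts are of called genes. Other BCL2 family genes numbered 4 for overexpression (2 at 5 TPM or with quantile normalization, 2 to 5 with a library left out), 3 for EGCG against overexpression (1 at 5 TPM) and 1 for EGCG against control (0 at 5 TPM, 2 with quantile normalization, rescaling or protein-coding transcripts alone, 0 to 2 with a library left out). Apoptosome genes numbered 11 for EGCG against overexpression (7 with rescaling) and 4 against control (2 with 2 groups in the fit, the block or protein-coding transcripts alone, 1 to 4 with a library left out). Inhibitors of apoptosis numbered 3 for overexpression (1 with median-ratio scaling or quantile normalization), 1 for EGCG against overexpression (0 with quantile normalization or rescaling, 2 with 2 groups, the block or protein-coding transcripts alone, 1 to 2 with a library left out) and 1 against control (2 with rescaling). Death receptor genes numbered 4 for overexpression (1 at 5 TPM), 2 for EGCG against overexpression (0 at 5 TPM, 4 with median-ratio scaling or rescaling) and 0 against control (1 with rescaling, 0 to 2 with a library left out). Regulators numbered 3 against control (0 with 2 groups or the block, 0 to 5 with a library left out), and transcription factors 7 for overexpression (11 with median-ratio scaling or quantile normalization) and 2 against control (4 with median-ratio scaling, quantile normalization or rescaling, 2 to 4 with a library left out). The causes were not tested. Of 528 values of the 9 tested genes under other settings, 477 kept direction and call, 33 changed sign without a call, 12 lost and 6 gained a call. Without counts, depth cannot be given as a limit, and 3 libraries per group bound the precision.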
